A study of Mus musculus with 6 samples.

Results

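Inducible nitric oxide synthase, the enzymes and carriers that feed it with arginine and cofactor, and the enzymes that turn ornithine into polyamines were followed in RAW264.7 cells given a miR-125b mimic. The 9 genes were chosen by their biochemical role (Nos2, Ass1, Asl, Slc7a1, Slc7a2, Odc1, Srm, Sms and Gch1) and matched to the expression table by Ensembl identifier and symbol. Of the 9 genes, 8 matched a row among the 16665 genes of the table, and Slc7a2 was not analysed here. Levels are in FPKM, fragments per kilobase of gene scaled to the mapped fragments of the library, a scale on which genes of different length can be compared. A mean of at least 1 FPKM over the 6 libraries was required for testing, which 7 of the 8 genes and 10166 genes in all met. Ass1 lay under it and is described without a test.

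RAW264.7, a leukaemia-derived mouse line with macrophage character, was grown in serum-containing medium. All 6 samples were transfected, 3 with a mimic of miR-125b (labelled as overexpressing it) and 3 with a negative control (labelled as wild type for it). The labels name no lipopolysaccharide, cytokine or other stimulus, and give no dose or time of transfection. They do not state whether the 3 samples of a group were grown separately. The p-values therefore weigh differences against sample-to-sample spread that may be technical only.

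Macrophages use arginine along competing routes. Nitric oxide synthase 2 turns it into nitric oxide and citrulline and needs tetrahydrobiopterin, whose synthesis starts with GTP cyclohydrolase 1 (Gch1). Argininosuccinate synthase (Ass1) and lyase (Asl) rebuild arginine from citrulline, and the cationic amino acid carriers encoded by Slc7a1 and Slc7a2 bring it in from outside. Arginase instead yields ornithine, which ornithine decarboxylase (Odc1) turns into putrescine, and the synthases of Srm and Sms extend putrescine to spermidine and spermine. Nos2 is a classic marker of inflammatory activation in this line.

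The sequence of the mature microRNA and its match in this pathway show which measured genes could pair with the seed. The RefSeq entry for mmu-miR-125b-5p (GRCm38.p6) is the same from both of its loci, chr9:41581940-41581961 and chr16:77646279-77646300, each on the plus strand. The labels do not say which arm the mimic holds, and the libraries do not measure the microRNA. Capitals mark the seed, bases 2 to 8, and in the second line the seed match in the Slc7a1 transcript.
miR-125b-5p: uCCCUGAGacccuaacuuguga
Slc7a1 site: aagatgttCTCAGGGcgctggca

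The longest annotated 3′ untranslated region of each gene was searched for the 8mer CTCAGGGA, the 7mer-m8 CTCAGGG, and for TCAGGGA, the 7mer-A1. Of the 8 measured genes only Slc7a1 held a match, a 7mer-m8 site at chr5:148328110-148328116 on the minus strand of GRCm38, starting at base 4324 of a region of 5030 bases. In Nos2, Ass1, Asl, Odc1, Srm, Sms and Gch1 these letters did not occur in regions of 255 to 2282 bases. Among all tested genes with such a region, 22.2% (2064 of 9313) held at least 1 of the 3 sites.

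The libraries held 14.45 to 16.81 M fragments, as recovered from the steps of the low values, so depth differed little between groups. Negative control 3 stood apart: it had 13266 genes above 0 against 15141 to 15470 in the other 5 libraries, and in 6684 of the 10166 tested genes (65.7%) its value was closer to the mimic average than to the average of negative controls 1 and 2. Across 10128 tested genes with annotation, the fold change between groups went with exon length (Spearman's rho 0.38) and with GC content (rho −0.55), as did the difference of negative control 3 from the other controls (rho 0.15 and −0.51). These rho values describe genes of the same 6 libraries, and genes are not independent replicates. Of the macrophage markers Lyz2, Csf1r, Cd68, Cd14, Spi1 and Adgre1 read 19.4 FPKM or more in every library, whereas Mrc1 reached at most 0.0408 FPKM. Few markers of other cell types matched the table: 2 of 9 for lymphocytes, 2 of 7 for fibroblasts and 2 of 6 for neutrophils. For epithelium and endothelium it was 2 of 7, Kdr and Pecam1. Those that matched read at most 0.6 FPKM in any library, and the others have no reading. The summed macrophage markers ranged from 7160 to 8630 FPKM in controls and from 6410 to 6680 FPKM with the mimic, with 0 of 9 tested markers passing in either direction. Most of that sum was Lyz2, at 7580, 7840 and 6520 FPKM in controls and 6000, 5960 and 5720 FPKM with the mimic. Ptprc went the other way without overlap (18.6, 18.7 and 26.3 against 26.7, 29.3 and 28.3 FPKM), while Itgam (11.7 to 15.8 FPKM) and Fcgr1 (1.13 to 3.57 FPKM) overlapped. The part of the marker levels in the results was not tested.

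The comparison of mimic with negative control asks how raised miR-125b changes these transcripts. None of the 7 tested genes passed limma's test at an adjusted p of 0.05, against 0% of all tested genes (0 of 10166, smallest adjusted p = 0.289). Before adjustment 1 of the 7, Nos2, was under 0.05, on the lower side, where 5.26% of all tested genes stood (7.96% on the higher side and 13.2% together). By limma voom on recovered fragments it was again 1 of 7, Nos2, beside 4.74% lower, 9% higher and 13.7% together. With a replicate block it was 0 of 7, beside 7.28% lower, 9.27% higher and 16.5% together. In none of the 8 did the 3 values of one group all lie on one side of the other group's, whereas 20.1% of all tested genes showed such a separation (12.6% higher and 7.49% lower with the mimic). The median log2 fold change of the 7 was 0.01, and that of all tested genes 0.04. Calls appeared when libraries were removed or weighted. Negative control 3 stood apart in these same values, nearer to the mimic average than to the other controls for 65.7% of tested genes. Calls made without it, or with it weighted down, are therefore no independent support for a change. Without negative control 3 Nos2 alone of the 7 passed, beside 23.7% of all tested genes (11.6% higher, 12.2% lower). When replicate 3 of both groups was left out, 3 of the 7 passed, all lower (Nos2, Odc1 and Srm), beside 43.1% (23.1% higher, 19.9% lower). Weighting each library by its fit gave the same 3 genes, beside 51.9% (27.8% higher, 24.1% lower). With negative control 3 left out and the length and GC trend removed, 0 of the 7 passed, beside 3.77%. Fold changes are mimic minus negative control on log2(FPKM + 1), a scale that understates changes of genes with low values. Below, passing refers to the unweighted limma test on all 6 libraries unless another setting is named.

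**Figure D1:**
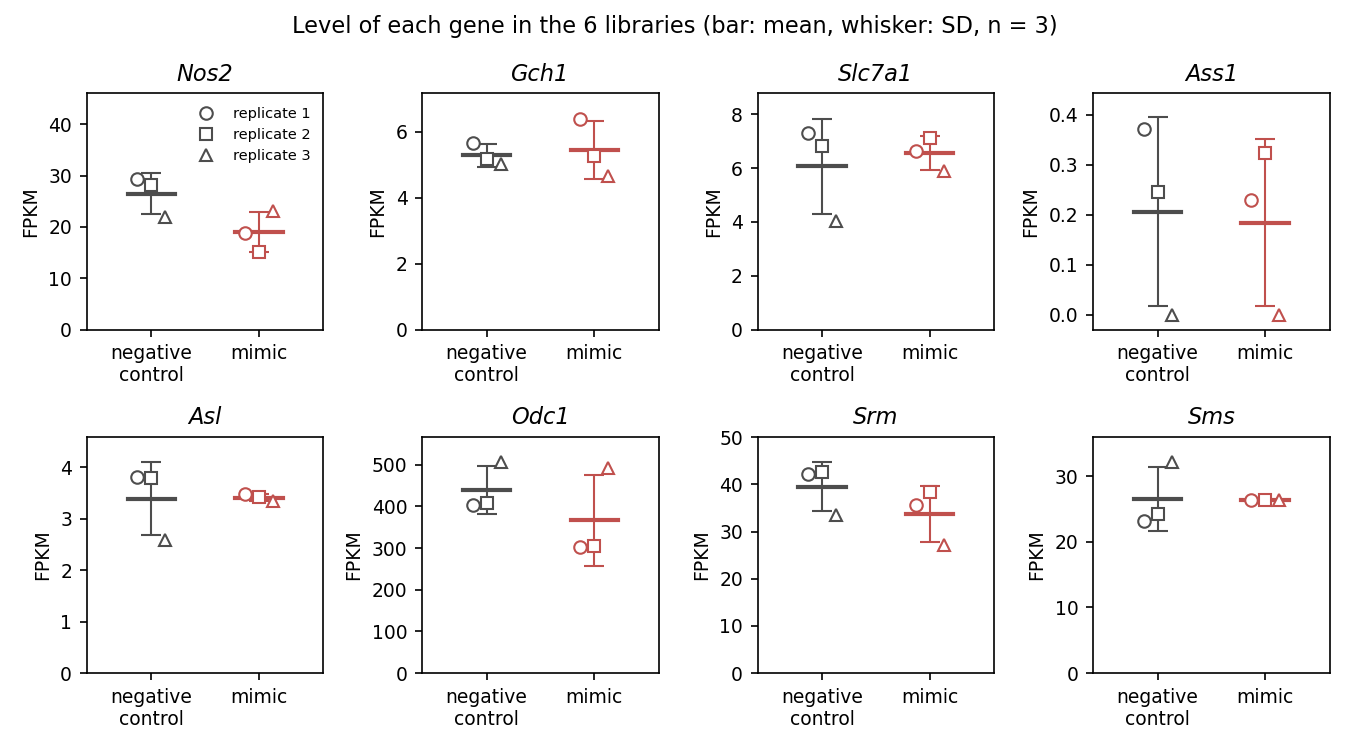
FPKM (vertical axes, linear) of the 8 genes in 3 negative control and 3 mimic libraries; symbols mark the replicate number, thick bars the mean and whiskers the SD (n = 3). The groups overlap in every panel, and the replicate 3 libraries of both groups are the highest for Odc1 and the only ones at 0 for Ass1.

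The genes covered a wide span of levels. Odc1 was the most abundant at a mean of 403 FPKM over the 6 libraries (range 303 to 506), far above the other 7. The spermidine and spermine synthases Srm (36.6 FPKM, 27.1 to 42.7) and Sms (26.4 FPKM, 23.1 to 32.1) came next, and then Nos2 (22.8 FPKM, 15.2 to 29.4). Neighbours in this middle order had overlapping ranges, although Srm exceeded Sms within each of the 6 libraries, and Sms exceeded Nos2 in 4 of 6. The arginine carrier Slc7a1 (6.31 FPKM) and Gch1 (5.37 FPKM) overlapped as well, with Slc7a1 above in 5 of 6 libraries. Asl followed at 3.4 FPKM (2.58 to 3.8), below all values of Gch1, and Ass1 was lowest at 0.195 FPKM. The citrulline recycling enzymes were therefore the least abundant of the measured set.

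Nos2 (ENSMUSG00000020826; GRCm38 chromosome 11, 78920787 to 78960254, plus strand) makes nitric oxide in activated macrophages. It read 29.4, 28.2 and 21.9 FPKM in negative controls 1, 2 and 3, and 18.8, 15.2 and 23.1 FPKM with mimics 1, 2 and 3. The mimic libraries 1 and 2 lay below all controls, while mimic 3 lay above negative control 3, so the groups overlapped. Means were 26.5 ± 4.05 and 19.1 ± 3.95 FPKM (SD, n = 3). This gave a log2 fold change of −0.46 (SE 0.18, 95% interval −0.89 to −0.04, limma adjusted p = 0.359). Between 1116 and 2089 recovered fragments stood behind each value. In bulk RNA, fewer cells that express the gene and less transcript per cell cannot be told apart. The call depended on the replicate 3 libraries, and calls made without them are no independent support for a change. With negative control 3 left out Nos2 fell by 0.59 (adjusted p = 0.042), and with both replicate 3 libraries left out it fell by 0.73 (adjusted p = 0.00275). After removal of both the library and the length and GC trend, Nos2 stood at −0.38 (adjusted p = 0.217).

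Genes around nitric oxide synthase gave no call either. Of the list of other synthases, partners and nitric oxide receptors, 11 of 14 matched the table and 7 were tested, of which 0 passed in either direction (median log2 fold change −0.03). The other nitric oxide synthases Nos1 and Nos3 lay under the filter, at no more than 0.528 FPKM in any library. Nosip, a protein that binds the endothelial synthase, had the smallest p of the list, at 9.78 ± 2.21 and 6.13 ± 1.11 FPKM (log2 fold change −0.59 with SE 0.19, limma adjusted p = 0.332). Its 3 controls read 11.6, 10.4 and 7.31 FPKM and the mimics 7.39, 5.68 and 5.32 FPKM, with negative control 3 just inside the mimic range. Calmodulin, which Nos2 binds, is encoded by 3 genes, of which Calm3 stood at −0.25 (SE 0.12), its 3 mimic values all below the 3 controls. The reductase Cyb5r3 stood at −0.33 (SE 0.18). These 3 genes, of the 7 tested, passed once negative control 3 was left out, beside 12.2% lower and 11.6% higher of all tested genes. Their estimates were −0.76 for Nosip (adjusted p = 0.0144), −0.32 for Calm3 (adjusted p = 0.03) and −0.54 for Cyb5r3 (adjusted p = 0.00712). After removal of the length and GC trend as well, none of the 3 passed (Nosip −0.4, adjusted p = 0.108; Calm3 0.081; Cyb5r3 −0.29, adjusted p = 0.0723). Calm3 stood at −0.0022 in all 6 libraries after that removal.

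Among 12 factors known to induce Nos2, all tested, 0 passed in either direction, and the estimates pointed both ways (7 higher, 5 lower, median 0.05). The receptor for lipopolysaccharide, Tlr4, had the highest estimate of the list, at 3.5, 4.07 and 5.34 FPKM in controls and 9.46, 9.85 and 5.52 FPKM with the mimic. All 3 mimic values exceeded the controls, though mimic 3 by little (a log2 difference of 0.79, SE 0.23, limma adjusted p = 0.332). Jak2, a kinase of interferon-gamma signalling, read 9.78 ± 0.793 and 13.3 ± 0.455 FPKM with no overlap (0.41, SE 0.11, adjusted p = 0.332). On the other side stood Irf1, a transcription factor required for Nos2 induction, at 1.63 ± 0.179 and 1.03 ± 0.188 FPKM, again without overlap (−0.38, SE 0.15, adjusted p = 0.364). Cebpb, a C/EBP factor of macrophage activation, read 118, 109 and 60.6 FPKM in controls and 59.4, 50 and 62.1 FPKM with the mimic (−0.69, SE 0.25, adjusted p = 0.344). Negative control 3 lay inside the mimic range there, as it did not for Irf1. Without it Tlr4 (0.92, adjusted p = 0.0315), Jak2 (0.47, adjusted p = 0.0121) and Cebpb (−0.99, adjusted p = 0.00531) passed and Irf1 did not (−0.37, adjusted p = 0.126). With Hif1a (higher) and Irf8 (lower), named here after their values were seen, 5 of the 12 then passed, 3 higher and 2 lower, beside 11.6% higher and 12.2% lower of all tested genes. When the length and GC trend was removed too, Cebpb alone of the 12 still passed (−0.57, adjusted p = 0.0275), with Tlr4 at 0.57 (adjusted p = 0.138) and Jak2 at 0.33 (adjusted p = 0.0723). Of all tested genes 3.77% passed in that setting (1.08% higher, 2.7% lower).

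Gch1 (ENSMUSG00000037580; chromosome 14, 47153895 to 47189413, minus strand), the entry enzyme of tetrahydrobiopterin synthesis, had the smallest coefficient of variation of the 8 genes over the 6 libraries (11.3%, against 11.7% for Sms). It read 5.68, 5.17 and 5.03 FPKM in controls and 6.4, 5.27 and 4.66 FPKM with the mimic. The highest and the lowest value were both mimic libraries. The log2 fold change was 0.03 (SE 0.14, 95% interval −0.3 to 0.36, limma adjusted p = 0.951). The interval includes differences of 0.3 in either direction.

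Of 7 other tetrahydrobiopterin genes tested from a list of 8, 0 passed (1 estimate higher and 6 lower, median −0.04). Gchfr, the feedback regulator that binds GTP cyclohydrolase, read 32.3, 31.4 and 18.6 FPKM in controls and 16.7, 16.6 and 20.4 FPKM with the mimic. Negative control 3 lay within the mimic range, below mimic 3 (−0.55 on the log2 scale, SE 0.22, limma adjusted p = 0.361). Sepiapterin reductase (Spr), the last step of the synthesis, read 2.79 ± 0.319 and 1.99 ± 0.405 FPKM without overlap (−0.35, SE 0.16). Pts, the enzyme between them, read 3.67 ± 0.363 and 3.63 ± 1.01 FPKM. Gchfr, with negative control 3 left out, fell by 0.8 (adjusted p = 0.00666), and Spr stood at −0.42 (adjusted p = 0.0919). Of the 7 tested genes 1 then passed, beside 12.2% lower and 11.6% higher of all tested genes. Gchfr no longer passed when the length and GC trend was removed as well (−0.44, adjusted p = 0.0699).

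Slc7a1 (ENSMUSG00000041313; chromosome 5, 148327410 to 148399904, minus strand) encodes the widely expressed arginine carrier CAT-1 and is the gene with the seed match shown above. It read 7.32, 6.83 and 4.04 FPKM in controls and 6.65, 7.13 and 5.89 FPKM with the mimic. The mimic values lay inside the control range, and the lowest value of all was negative control 3. The log2 fold change was 0.13 (SE 0.21, 95% interval −0.35 to 0.61, limma adjusted p = 0.803). It turned to −0.099 without negative control 3 (adjusted p = 0.532), and was 0.00022 after removal of the length and GC trend. The sign thus differed between settings, and the interval with all libraries reaches down to −0.35.

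Ass1 (ENSMUSG00000076441; chromosome 2, 31470207 to 31520672, plus strand) was barely detected. It read 0.372, 0.246 and 0 FPKM in controls and 0.229, 0.324 and 0 FPKM with the mimic, from 14, 10, 0, 8, 13 and 0 recovered fragments. The 2 libraries at 0 were both replicate 3, and 3 fragments would have been 0.0845 FPKM in negative control 3 and 0.0808 FPKM in mimic 3. That limit covers counting error of fragments only, which are not independent molecules. Asl (ENSMUSG00000025533; chromosome 5, 130011258 to 130029247, minus strand) was present throughout, at 3.8, 3.79 and 2.58 FPKM in controls and 3.47, 3.42 and 3.34 FPKM with the mimic. Its 3 mimic values were close together (SD 0.066) and lay within the control range, giving a log2 fold change of 0.02 (SE 0.16, 95% interval −0.35 to 0.38). Without negative control 3 it stood at −0.12 (limma adjusted p = 0.408).

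The other arginine genes comprised 19 matched of 23 listed, with 13 tested and 0 passed (2 estimates higher, 11 lower, median −0.03). Arginase 1, the hepatic form that marks alternatively activated macrophages, was under the filter at 0.0801 to 0.292 FPKM. Arginase 2, the mitochondrial form, read 0.808, 1.33 and 2.57 FPKM in controls and 0.485, 0.675 and 0.865 FPKM with the mimic. One mimic value lay above the lowest control (log2 fold change −0.57, SE 0.26, limma adjusted p = 0.403). Its highest value was negative control 3, without which Arg2 stood at −0.3 (adjusted p = 0.285). Oat, which links ornithine to glutamate and proline, read 49.6 ± 6.55 and 48.1 ± 8.97 FPKM. Slc3a2, the heavy chain shared by several amino acid exchangers, read 30.7, 30.1 and 16.4 FPKM in controls and 18.2, 15.9 and 16.7 FPKM with the mimic (−0.53, SE 0.23, adjusted p = 0.389). Negative control 3 again lay among the mimics, and without it Slc3a2 fell by 0.81 (adjusted p = 0.00524). No other of the 13 tested genes passed there, beside 11.6% higher and 12.2% lower of all tested genes. With the trend removed too (−0.57, adjusted p = 0.0235) Slc3a2 was 1 of 2 genes of all the pathway lists that passed, the other being Cebpb. Those were 2 of 68 tested list genes, beside 3.77% of all tested genes.

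**Figure D2:**
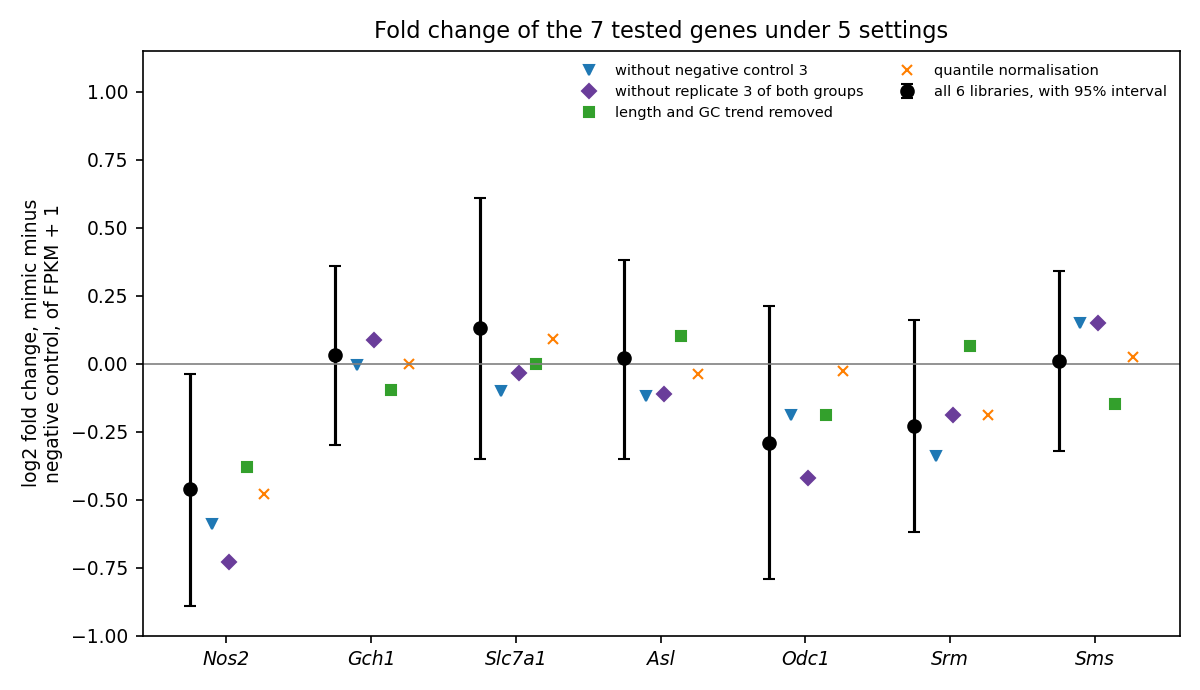
Log2 fold change of FPKM + 1, mimic minus negative control (vertical axis), for the 7 tested genes; black points use all 6 libraries with limma's 95% interval, and other symbols show 4 alternatives (without negative control 3, without replicate 3 of both groups, quantile normalisation, and removal of the length and GC trend). With all 6 libraries the interval of Nos2 alone excludes 0, at an adjusted p of 0.359, and the estimates of Gch1, Slc7a1, Asl, Srm and Sms fall on either side of 0 among the settings drawn.

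Odc1 (ENSMUSG00000011179; chromosome 12, 17544794 to 17551505, plus strand), the rate-limiting enzyme of polyamine synthesis, stood highest in the replicate 3 library of each group. It read 404, 408 and 506 FPKM in controls and 303, 305 and 492 FPKM with the mimic. Mimics 1 and 2 were the lowest and nearly equal, while both replicate 3 libraries were the highest. Means were 439 ± 57.5 and 367 ± 109 FPKM, with a log2 fold change of −0.29 (SE 0.21, 95% interval −0.79 to 0.21, limma adjusted p = 0.564). With both replicate 3 libraries left out Odc1 fell by 0.42 (adjusted p = 0.00154). Single removals gave −0.52 without mimic 3 (adjusted p = 0.273), −0.17 without mimic 1 and −0.18 without mimic 2. It stood at 0.031 when negative control 3 and the trend were both removed. Within same-numbered libraries the differences were −0.41, −0.42 and −0.04. The mouse genome holds several Odc1-like copies, so single values are uncertain where reads were shared. Under quantile normalisation the estimate was −0.026 (adjusted p = 0.965).

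Srm (ENSMUSG00000006442; chromosome 4, 148591503 to 148594993, plus strand) read 42.3, 42.7 and 33.5 FPKM in controls and 35.7, 38.4 and 27.1 FPKM with the mimic. In each group the replicate 3 library was the lowest, the opposite of Odc1. The log2 fold change was −0.23 (SE 0.17, 95% interval −0.62 to 0.16, limma adjusted p = 0.559), and all 3 same-numbered differences were below 0 (−0.24, −0.15 and −0.3). With both replicate 3 libraries left out Srm fell by 0.19 (adjusted p = 0.0373), whereas without mimic 3 alone it stood at −0.084 (adjusted p = 0.824). After removal of the length and GC trend it was 0.065 (adjusted p = 0.907); Srm has the shortest exon length of the 8 (1599 bases) and the highest GC content (59.8%, against a median of 49% over tested genes).

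Sms (ENSMUSG00000071708; chromosome X, 157443855 to 157492287, minus strand) read 23.1, 24.3 and 32.1 FPKM in controls and 26.3, 26.4 and 26.4 FPKM with the mimic. The mimic values were nearly identical and lay between negative controls 2 and 3, with means of 26.5 ± 4.89 and 26.4 ± 0.0572 FPKM (log2 fold change 0.01, SE 0.14, 95% interval −0.32 to 0.34). It stood at 0.15 when negative control 3 was left out (limma adjusted p = 0.164) and at −0.15 after removal of the length and GC trend (adjusted p = 0.731). Odc1, Srm and Sms thus placed the replicate 3 libraries differently.

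Among the other polyamine genes 20 of 21 matched, 19 were tested and 0 passed, with 8 estimates higher and 11 lower (median −0.08). Antizyme 1 (Oaz1), which binds ornithine decarboxylase and sends it to the proteasome, read 293, 297 and 399 FPKM in controls and 262, 266 and 278 FPKM with the mimic. The mimic values lay below all controls, and negative control 3 was the highest (log2 fold change −0.28, SE 0.15, limma adjusted p = 0.454). Oaz2, a second antizyme, stood at −0.48 (SE 0.18). The antizyme inhibitor Azin1, which frees ornithine decarboxylase, read 29.2, 28.2 and 56.1 FPKM in controls and 39.5, 40 and 49.8 FPKM with the mimic. Both replicate 3 libraries were the highest for Azin1, as for Odc1, and the estimate of 0.25 (SE 0.26) shrank to −0.0024 with the trend removed. Amd1, which supplies the aminopropyl donor and has the near-identical copy Amd2, read 22.2 ± 2.15 and 25.4 ± 4.72 FPKM. With both replicate 3 libraries left out Oaz1 (−0.16, adjusted p = 0.031), Oaz2 (−0.72, adjusted p = 0.00129), Azin1 (0.45, adjusted p = 0.00183) and Amd1 (0.26, adjusted p = 0.0183) passed. In that setting 6 of the 19 tested genes of the list passed higher and 6 lower, beside 23.1% and 19.9% of all tested genes.

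Polyamine breakdown and transport were represented by oxidase, acetyltransferase and transporter genes. Spermine oxidase (Smox) read 38, 38.3 and 28.9 FPKM in controls and 24.7, 23.8 and 31.6 FPKM with the mimic, with mimic 3 above negative control 3 (log2 fold change −0.38, SE 0.16, limma adjusted p = 0.377). The acetyltransferase Sat1, the main catabolic step, was among the most even, at 163 ± 1.31 and 152 ± 5.39 FPKM, the mimic values all lower (−0.1, SE 0.099). Its relative Sat2, which acts mainly on another substrate, read 1.55 ± 0.235 and 0.757 ± 0.135 FPKM without overlap (−0.53, SE 0.16, adjusted p = 0.332). Atp13a3, a polyamine transporter, was higher by estimate at 27.8 ± 7.21 and 37.5 ± 3.15 FPKM (0.44, SE 0.18). With negative control 3 left out Smox (−0.51, adjusted p = 0.032), Sat2 (−0.59, adjusted p = 0.0341), Oaz2 (−0.67, adjusted p = 0.00724), Azin1 (0.56, adjusted p = 0.0185) and Atp13a3 (0.64, adjusted p = 0.00735) passed. Oaz1 then stood at −0.13 (adjusted p = 0.191). None of those 5 passed when the length and GC trend was removed as well (Smox −0.27, Sat2 −0.43, Oaz2 −0.4, Azin1 0.19 and Atp13a3 0.23, with adjusted p from 0.0839 to 0.453). Slc3a2, which is also in the polyamine list, passed without negative control 3 (−0.81, adjusted p = 0.00524). It still passed with the trend removed too (−0.57, adjusted p = 0.0235), where 3.77% of all tested genes did. Without negative control 3 the list had 2 higher and 4 lower calls of 19, beside 11.6% and 12.2% of all tested genes. When both replicate 3 libraries were left out, Smox (−0.64, adjusted p = 0.00105), Sat1 (−0.14, adjusted p = 0.0493), Sat2 (−0.66, adjusted p = 0.0134) and Atp13a3 (0.7, adjusted p = 0.00116) passed. They are among the calls counted for that setting above. Weighting the libraries passed Smox, Sat1, Sat2 and Atp13a3 as well, beside the 51.9% given above.

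Spermidine also donates the group that becomes hypusine in the translation factor eIF5A. Of the 4 hypusine genes 3 were tested and 0 passed, all 3 with estimates below 0 (median −0.42). Eif5a read 420, 426 and 333 FPKM in controls and 267, 270 and 304 FPKM with the mimic, without overlap (log2 fold change −0.48, SE 0.14, limma adjusted p = 0.332). The gene has processed copies in the genome, so its value is uncertain. Deoxyhypusine synthase (Dhps) read 5.51 ± 0.347 and 3.9 ± 0.539 FPKM, also without overlap (−0.42, SE 0.13, adjusted p = 0.332), and the hydroxylase Dohh 4.07 ± 1.95 and 2.85 ± 1.09 FPKM. With negative control 3 left out Eif5a fell by 0.59 (adjusted p = 0.00724), Dhps stood at −0.43 (adjusted p = 0.0564) and Dohh at −0.61 (adjusted p = 0.181). Thus 1 of the 3 passed there, beside 12.2% lower and 11.6% higher of all tested genes. With the trend removed and all libraries, Eif5a was at −0.27 and Dhps at −0.2. Dhps (−0.5, adjusted p = 0.0146) and Eif5a (−0.65, adjusted p = 0.00077) passed when both replicate 3 libraries were left out, beside 19.9% lower of all tested genes. Eif5a did not pass with negative control 3 and the trend both removed (−0.25, adjusted p = 0.205).

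Odc1 and Srm are known targets of MYC-family factors, so that network was listed too. Of 11 listed symbols, of which Miz1 is another name of Zbtb17, 9 matched, 8 were tested and 0 passed (2 estimates higher, 6 lower, median −0.11). Myc itself was low, at 3.64 ± 0.682 and 3.08 ± 0.701 FPKM. Mycn, named after its values were seen, was far higher at 224, 219 and 146 FPKM in controls and 184, 155 and 176 FPKM with the mimic (log2 change −0.17, SE 0.18, limma adjusted p = 0.706). The MYC partner and repressor genes Zbtb17 (−0.3, SE 0.25) and Mnt (−0.21, SE 0.18) had the smallest p of the list. With negative control 3 left out Mycn fell by 0.37 (adjusted p = 0.0297) and Zbtb17 by 0.59 (adjusted p = 0.00944), and Mnt stood at −0.4 (adjusted p = 0.0559). There 2 of the 8 tested genes passed, both lower, beside 12.2% lower and 11.6% higher of all tested genes. Neither Mycn (−0.081) nor Zbtb17 (−0.27) passed when the trend was removed as well. With both replicate 3 libraries left out Mnt (−0.41, adjusted p = 0.0353), Mycn (−0.39, adjusted p = 0.0118) and Zbtb17 (−0.57, adjusted p = 0.00337) passed, beside 19.9% lower of all tested genes. Negative control 3 was the lowest library for Mycn and the highest for Odc1.

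RefSeq promoters (GRCm38.p6, 250 bases before to 50 after the start) were matched for Ass1, Slc7a1, Odc1, Sms and Gch1, 5 of the 9 genes, and searched on both strands for 4 motifs. The MYC/MAX E-box CACGTG occurred in that of Ass1, in 1 of the Sms promoters and in 7.15% of all 32851 promoters. Such shares count promoters and not genes, and Slc7a1 and Sms had more than 1 promoter each. The windows show it in capitals, at chr2:31470222-31470251 (plus strand) and chrX:157492466-157492495 (minus strand).
Ass1 E-box: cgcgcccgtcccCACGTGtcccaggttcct
Sms E-box: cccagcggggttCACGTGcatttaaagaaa

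The letters did not occur in the 300 bases of Odc1, which says nothing of sites elsewhere in the gene. A GGGANNNNCC element, read by NF-kB factors, was found for Ass1, 1 of the Slc7a1 promoters and each Sms promoter (20.7% of all promoters). TTCNNNGAA, read by STAT factors, was found for 1 of the Slc7a1 promoters (8.3%). GAAANNGAAA, read by IRF factors, was found for none of the 5 genes (3.44%). Each match is a description of letters, not of a bound site.

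**Figure D3:**
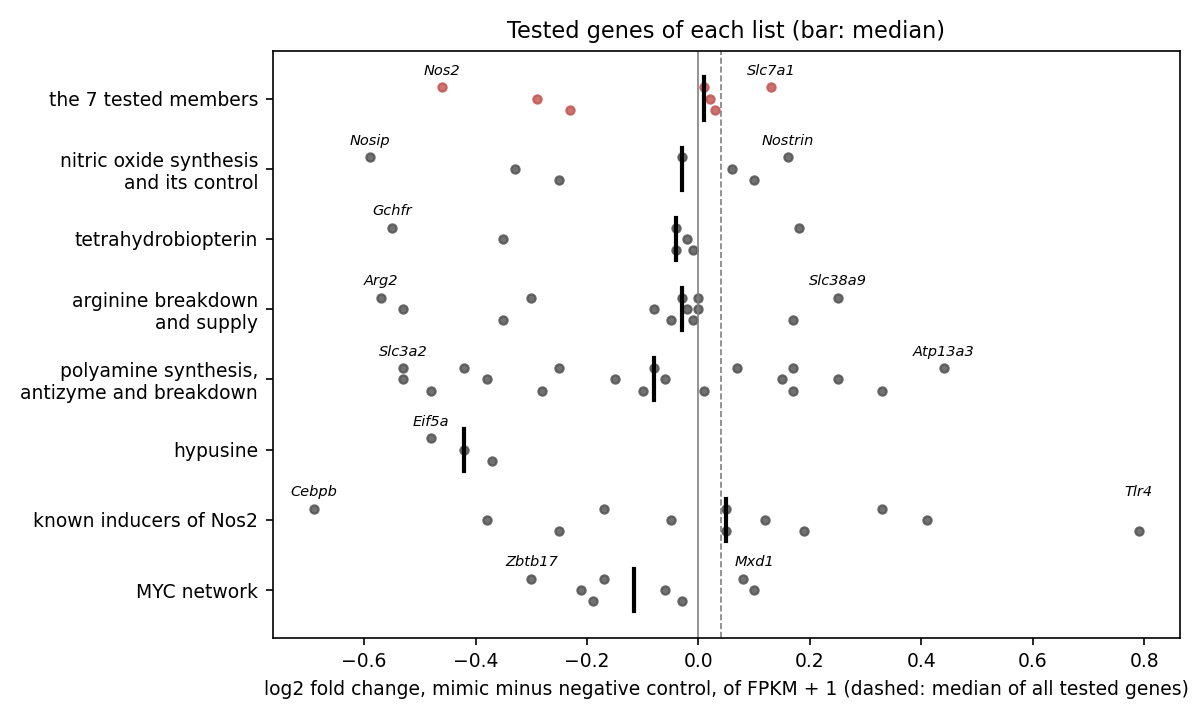
Log2 fold change of FPKM + 1, mimic minus negative control (horizontal axis), of every tested gene of the 7 tested members and of the 7 lists of related genes; bars mark medians and the dashed line the median of all tested genes, 0.04. Points lie on both sides of 0 in each list other than the 3 hypusine genes, and none of them passed.

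Over the 7 lists together, each symbol counted once, 68 of 92 symbols were tested. None passed, their smallest adjusted p by limma being 0.332, and before adjustment 3 stood under 0.05 on the higher and 9 on the lower side, where 7.96% and 5.26% of all tested genes stood. The median log2 fold change was −0.05. In 13 of the 68 the groups did not overlap (3 higher and 10 lower), beside the 12.6% and 7.49% of all tested genes given above. In the 5 libraries that remain without negative control 3, 18 of the 68 passed, 5 higher and 13 lower, where 11.6% and 12.2% of all tested genes did. With the length and GC trend removed as well, 0 were higher and 2 lower, where 1.08% and 2.7% of all did.

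Differences between same-numbered libraries were below 0 in all 3 pairs for Odc1 and Srm, though pair 3 of Odc1 stood at only −0.04. The share of all tested genes with the same sign in all 3 pairs is not given here, and no label states that the numbers pair the samples. For Nos2 the differences were −0.62, −0.84 and 0.08, for Asl −0.1, −0.12 and 0.28, for Slc7a1 −0.12, 0.05 and 0.45, for Sms 0.18, 0.12 and −0.27, and for Gch1 0.15, 0.02 and −0.09. In Nos2, Asl, Sms and Gch1 the sign in pair 3 was thus opposite to that in pairs 1 and 2. Negative control 3 was closer to the mimic average than to its own group in 6 of the 7 tested genes, all but Odc1, beside 65.7% of all tested genes. Mimic 3 was nearer to negative control 3 than to the other mimics for Nos2, Gch1, Odc1 and Srm, 4 of 7, beside 46.3% of all tested genes.

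**Figure D4:**
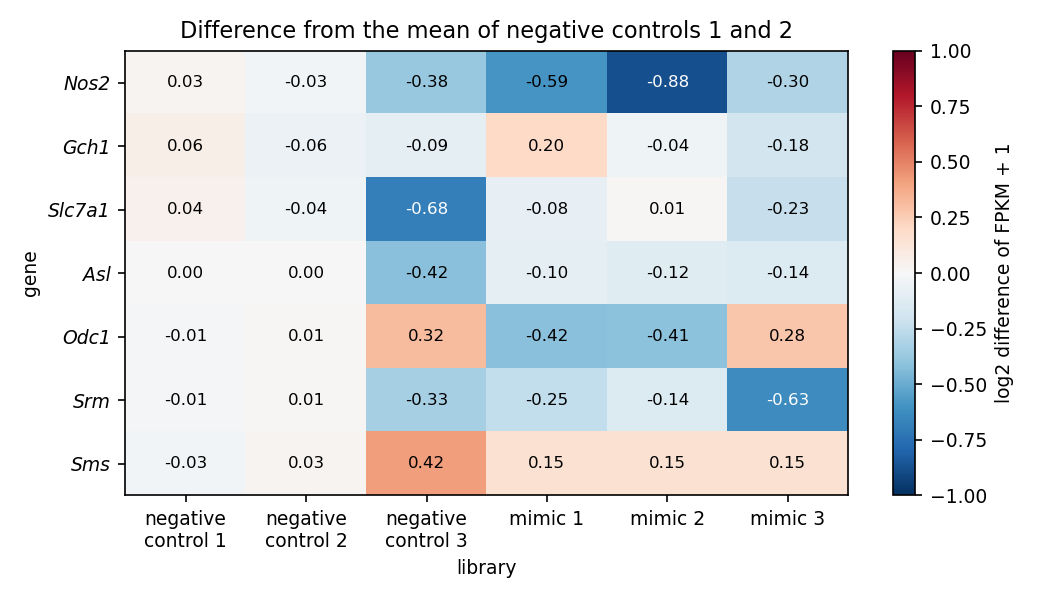
Log2 difference of FPKM + 1 of each library (columns) from the mean of negative controls 1 and 2, for the 7 tested genes (rows); red is higher and blue lower. Negative control 3 departs by −0.68 for Slc7a1, −0.42 for Asl, 0.42 for Sms and 0.32 for Odc1, and mimic 3 by 0.28 for Odc1, where mimics 1 and 2 stand at −0.42 and −0.41.

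Pearson's r over the 6 libraries, on log2(FPKM + 1), was 0.95 between Slc7a1 and Asl, −0.98 between Sms and Asl and −0.91 between Sms and Slc7a1. For Odc1 it was −0.73 with Gch1, −0.67 with Slc7a1, 0.58 with Nos2, −0.46 with Asl, −0.45 with Srm and 0.35 with Sms. These values are descriptions of 6 points that share libraries; in the first 3 negative control 3 is the farthest point in each gene. By the same measure the tested genes most like Nos2 were Cib1 (r 0.992), Kdelr1 (0.991) and Kcnab2 (0.99), with 83 genes above 0.95. Those most like Odc1 were Atf3 (0.994), Gm44386 (0.984) and Tatdn2 (0.984). Atf3, a stress-induced transcription factor, read 48.8, 49.4 and 57.3 FPKM in controls and 37.8, 36.3 and 57.6 FPKM with the mimic, with the replicate 3 libraries on top as in Odc1. Nearest to Srm were Haus7 (0.994), Eif1ad (0.994) and Rfc2 (0.991), to Sms Chtop (0.997), Rnf128 (0.997) and Ywhae (0.995), and to Gch1 Acvr1b (0.979), Aimp2 (0.967) and Casp9 (0.965). Ifnar2 (0.998), Ehd4 (0.997) and Wipi1 (0.997) were nearest to Asl, and Galm, Srprb and Tert (each 0.996) to Slc7a1. With 6 points such values are reached by many genes, from 4 above 0.95 for Gch1 to 363 for Asl.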

How the data were processed

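RNA-seq of 6 RAW264.7 samples was used, 3 per group, assigned from the sample titles. The deposited table holds FPKM values made by the authors. Build mm10 and the tools HISAT2, fastp and DESeq2 are named, per the submitters' processing notes. Their versions, the annotation, the counting tool, the strand setting and any filter were not stated there. Symbols, exon lengths, GC and 3′ untranslated regions came from GENCODE M21 (GRCm38); 83 identifiers had no match there.

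Genes with a mean of at least 1 FPKM entered limma (version 3.58.1, under R version 4.3.3) as log2(FPKM + 1). The test was two-sided and used limma's intensity trend, with Benjamini-Hochberg adjustment over all tested genes (threshold 0.05). The fit was tested on simulated data. Fragments were recovered from FPKM and exon length: among low values, those of at most 20 fragments, 98.53% to 99.03% were within 0.1 of a whole number. Recovered depths were 14.45 to 16.81 M. Negative controls 1 and 2 were the closest pair (chi-square per gene 4.49, against 6.37 for mimics 1 and 2), and all samples were kept separate. From negative control 3 they differed by 89.68 and 90.47, more than in any pair between groups (29.02 to 64.01). The library closest to negative control 3 was mimic 3 (29.02), which differed from mimics 1 and 2 by 23.28 and 26.34. Length and GC trends were removed with mgcv 1.9.3 smooths.

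Deviations of same-numbered libraries from their group means correlated at 0.287, 0.183 and 0.339 for replicates 1, 2 and 3. Each exceeded 0.1, the minimum set for using a replicate block as an alternative, on the data and not on any label. Deviations within a group of 3 cancel out, so these 3 values are not independent and do not establish pairing. The main test left the samples unpaired. For replicate 1 a library of another number correlated slightly more (0.308).

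The genes and lists were chosen with earlier results of these data known. Named are all members, 16 fixed pathway genes, the 3 smallest p of each list, the 3 genes most like each member, and Mycn, added after its values were seen (as were Hif1a and Irf8, without values); 2 genes this rule picks are not reported here.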

Additional observations from a re-analysis of the deposited data

How the results depend on the processing

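With all 6 libraries, 0 genes and 0 of the 7 members passed by limma under each pseudocount, filter and scaling, with the length and GC trend removed, by limma voom on recovered fragments and with the replicate block (0 genes). At an unadjusted p under 0.05, limma gave 1344 genes, voom 1393 and the replicate block 1682. The replicate block changed no call, also with the trend removed, an alternative chosen after seeing the data. Array weights, whose fit did not converge fully and which gave negative control 3 a weight of 0.09, passed 5276 genes and 3 members, with a median of −0.1. Without replicate 3 of both groups 4377 genes and 3 members passed (median −0.11). Leaving out each library in turn gave 0 to 2412 genes, 0 to 1 members and medians from −0.12 to 0.0093; all these calls came without negative control 3, with 2 controls left. Without it and with the trend removed, 382 genes passed. The members' median of 0.01 stood at −0.11 with a mean of at least 5 FPKM, where Asl drops out, and at −0.096 with the trend removed, with or without the replicate block.

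Signs turned under median scaling for Asl (−0.016), Sms (−0.025) and Gch1 (−0.0085); under quantile normalisation Asl (−0.039), Gch1 (−0.0017), Oat (0.0042), Sat1 (0.043) and Mycn (0.02); with array weights Asl (−0.1), Slc7a1 (−0.03) and Pts (0.078); without replicate 3 of both groups Asl (−0.11), Slc7a1 (−0.034) and Pts (0.094). With the trend removed, alike with and without the replicate block, these were Srm (0.065), Sms (−0.15), Gch1 (−0.096), Azin1 (−0.0024) and Amd1 (−0.0054). With the trend and negative control 3 both removed they were Slc7a1 (−0.16), Odc1 (0.031), Srm (0.11), Sms (−0.042), Gch1 (−0.11), Oaz1 (0.22), Amd1 (−0.14) and Calm3 (0.081). Leaving out 1 library turned Asl (−0.12 to 0.09), Slc7a1 (−0.099 to 0.26), Sms (−0.077 to 0.15), Gch1 (−0.077 to 0.12), Pts (−0.15 to 0.16) and Oat (−0.16 to 0.11). The cause was not tested. Depth limits Ass1 most.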
